A study of Mus musculus with 32 samples.

Results

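The AKT and mTOR pathway core consists of 9 genes, Akt1, Akt2, Gsk3b, Tsc1, Tsc2, Rheb, Mtor, Rptor and Rictor, taken by name from a table of 53465 genes. All 9 were found, each under a single Ensembl identifier, and all 9 had enough counts to be tested in every comparison. RNA was sequenced from 500 sorted spleen cells per library, from C57BL/6 mice of 12 weeks, 14 days after intraperitoneal injection of NP-CGG, a hapten on chicken gamma globulin, in alum. The 32 libraries form 8 groups of 4, with plasma cells, naive B cells and the dark and light zone fractions of germinal centre B cells each taken from mice labelled AID-cre aPIK3CD and from mice labelled AID-cre WT. All mice, controls included, carried AID-cre, a Cre recombinase allele, and aPIK3CD stands for activated PIK3CD, the catalytic subunit p110-delta of a leukocyte phosphoinositide 3-kinase (PI3K). The series asks what activated PIK3CD signalling does to the transcriptome of each population. The labels name no individual animals, so the p-values measure the spread between these libraries, which may be partly technical.

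PI3K makes a membrane lipid that recruits the kinases AKT1 and AKT2. AKT phosphorylates and restrains glycogen synthase kinase 3 beta (GSK3B) and the TSC1-TSC2 complex. TSC1-TSC2 holds the small GTPase RHEB in its inactive form, and active RHEB switches on the mTOR kinase in complex with RPTOR (mTORC1), which drives translation and anabolic metabolism. The same kinase in complex with RICTOR (mTORC2) phosphorylates AKT. In B cells this route is known to act in activation, in germinal centre selection and in the high protein output of plasma cells. It is regulated largely by phosphorylation, which RNA counts do not measure.

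Total counts ranged from 473149 to 2820830 in 31 libraries and came to 25797 in dark zone WT replicate 3. In that library 1 count is worth 34.3 CPM and 3 counts are worth 103 CPM, Rheb and Tsc2 had 0 counts, and its values are given apart from the group means below. CPM are counts scaled to a common library size, adjusted by TMM (trimmed mean of M values). In the 4 libraries titled aPIK3CD replicate 1 the genotype field reads WT; they were grouped by title. The summed level of 6 plasma cell markers was 10727 to 14471 CPM in plasma cells and at most 2641 CPM elsewhere, a value of the shallow library, and that of 5 naive B cell markers was 3073 to 3839 CPM in naive B cells and at most 1058 CPM elsewhere. The 5 light zone markers summed to 1227 to 1700 CPM in light zone and 562 to 931 CPM in the deep dark zone libraries. They also summed to 966 to 1289 CPM in naive B cells and 1446 to 1668 CPM in plasma cells, both overlapping the light zone. In bulk libraries fewer cells of a type and less RNA per cell cannot be told apart.

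By group mean, Rheb was highest in plasma cells, Rictor in naive B cells and Akt1 in the dark zone, in both genotypes. Of the 9 members, 0 passed the test between aPIK3CD and WT (edgeR's quasi-likelihood test, Benjamini-Hochberg adjusted p below 0.05) in naive B cells, where 0% of all genes passed, in the dark zone (0.021%), in the light zone (0%) or in plasma cells (3.2%). The difference with the smallest p-value was that of Gsk3b in plasma cells, at 40.3 ± 4.79 CPM in aPIK3CD and 71.6 ± 5.41 CPM in WT (SD, n = 4 each). Per kilobase of exon, which allows levels to be set side by side between genes, Akt1 and Rheb held the highest 2 mean levels in each of the 8 groups and Rptor the lowest. In aPIK3CD plasma cells, for example, Rheb averaged 50.2, Akt1 16.2 and Rptor 2.14 CPM per kilobase, and in WT plasma cells 47.8, 13.4 and 1.81 CPM per kilobase.

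**Figure D1:**
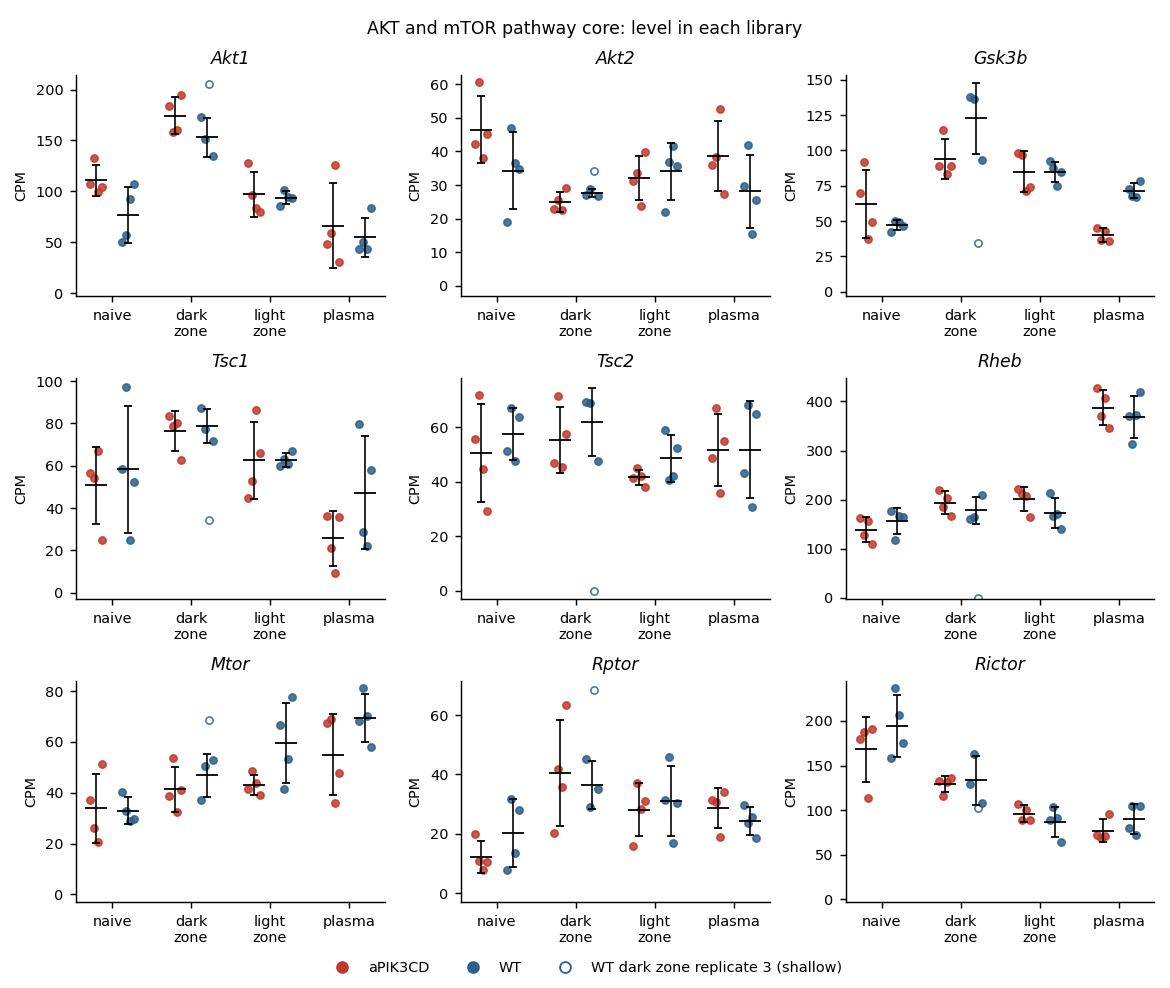
Level of each of the 9 genes in CPM (linear axes) in the 32 libraries, by population, with aPIK3CD left of WT. Points are libraries, black lines the mean and SD over 4 libraries (3 in WT dark zone, where the shallow replicate 3 is shown as an open circle and left out of the mean). Rheb stands at 314 to 428 CPM in plasma cells of both genotypes, while the highest group means are those of naive B cells for Rictor and of the dark zone for Akt1.

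The 300 bases around the annotated start (250 before, 50 after) are shown for Rheb, Akt1 and Gsk3b, whose levels the results below turn on most. The sequences are those of RefSeq on GRCm38.p6, which matched all 9 genes. The 13 start sites used lie on the genes' own chromosomes. Rheb lies at chr5:24842312-24842611 (minus strand), Akt1 at chr12:112674835-112675134 (minus strand, 1 of 2 listed starts) and Gsk3b at chr16:38088751-38089050 (plus strand). Capitals mark an E-box (CACGTG) in Rheb, a forkhead motif (TGTTTAC) in Akt1 and CCAAT boxes, on either strand (CCAAT or ATTGG), in Gsk3b.
Rheb: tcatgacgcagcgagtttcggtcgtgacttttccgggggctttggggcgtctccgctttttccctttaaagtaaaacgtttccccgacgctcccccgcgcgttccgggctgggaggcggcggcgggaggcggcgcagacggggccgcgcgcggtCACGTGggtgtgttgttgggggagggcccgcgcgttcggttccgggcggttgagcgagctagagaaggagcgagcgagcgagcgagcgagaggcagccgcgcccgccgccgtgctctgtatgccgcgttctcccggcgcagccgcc
Akt1: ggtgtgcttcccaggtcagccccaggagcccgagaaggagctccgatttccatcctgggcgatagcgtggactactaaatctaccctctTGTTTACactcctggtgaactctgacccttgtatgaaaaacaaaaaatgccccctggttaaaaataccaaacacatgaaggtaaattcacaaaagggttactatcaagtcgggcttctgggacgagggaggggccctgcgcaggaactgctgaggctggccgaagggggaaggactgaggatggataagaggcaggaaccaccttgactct
Gsk3b: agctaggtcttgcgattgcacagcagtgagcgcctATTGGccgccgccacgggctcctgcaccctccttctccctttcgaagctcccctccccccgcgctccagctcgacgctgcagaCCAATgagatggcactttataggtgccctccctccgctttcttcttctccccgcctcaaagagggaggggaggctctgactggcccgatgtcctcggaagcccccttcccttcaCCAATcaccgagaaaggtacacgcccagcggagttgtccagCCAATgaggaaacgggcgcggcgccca
Of 32851 promoter windows of this length, searched on both strands, 7.15% hold at least 1 CACGTG, 3.65% at least 1 TGTTTAC and 37.4% at least 1 CCAAT. The E-box of Rheb begins 96 bases before the start, and no other member window holds one. The forkhead motif of Akt1 is in the window shown and is absent from that of its other listed start. Gsk3b holds 4 CCAAT boxes, as does Mtor, and 3.37% of all windows hold 3 or more. The unfolded protein response core TGACGTGG was found in 0 of the 13 windows and in 0.676% of all windows. These matches describe letters in a window and do not show binding.

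AKT1 is the AKT isoform with the broadest expression. Akt1 (ENSMUSG00000001729, chromosome 12) measured 184, 159, 160.0 and 195 CPM in aPIK3CD dark zone cells and 107, 133, 99.0 and 104 CPM in aPIK3CD naive B cells. In WT it measured 173, 151 and 135 CPM in the 3 deep dark zone libraries, with 6 counts in the shallow one, and 50.6, 57.1, 92.5 and 107 CPM in naive B cells. All dark zone libraries of a genotype stood above all of its naive libraries, and Akt1 rose in the dark zone over naive B cells by 0.67 on the log2 scale in aPIK3CD (SE 0.15, edgeR adjusted p = 0.00316) and by 1.06 in WT (SE 0.25, edgeR adjusted p = 0.0028).

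Light zone libraries held 128, 96.8, 83.4 and 79.7 CPM of Akt1 in aPIK3CD and 86.1, 101, 94.9 and 93.2 CPM in WT. These lay below every dark zone library of the same genotype. The log2 difference of light zone against dark zone was -0.86 in aPIK3CD (SE 0.17, edgeR adjusted p = 0.00513) and -0.72 in WT (SE 0.17, edgeR adjusted p = 0.0274). Akt1 was the only member to pass between the zones, so the count was 1 of 9, lower, in each genotype, where 2.91% of all genes were lower in aPIK3CD and 1.26% in WT. In WT this call was lost under DESeq2, when 1 model was fitted to all 8 groups and when any of 5 of the 8 libraries was left out (adjusted p up to 0.176 over the alternatives), namely dark zone replicates 1 and 2 and light zone replicates 1, 2 and 3. In aPIK3CD it was lost in 1 of 15 alternatives, narrowly, in the model of all 8 groups.

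Plasma cells held 48.5, 59.5, 126 and 30.8 CPM of Akt1 in aPIK3CD and 43.3, 49.7, 42.9 and 83.4 CPM in WT. A single library in each genotype stood above the other three. Akt1 fell in WT plasma cells relative to WT light zone cells by 0.74 on the log2 scale (SE 0.24, edgeR adjusted p = 0.015), a call lost without plasma cell WT replicate 3 (adjusted p = 0.0505). The same difference in aPIK3CD was -0.55 (SE 0.33, edgeR adjusted p = 0.167).

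AKT2 is the isoform known for its part in insulin-driven glucose uptake. Akt2 (ENSMUSG00000004056, chromosome 7) was measured at group means between 25.0 and 46.5 CPM, the highest in aPIK3CD naive B cells and the lowest in aPIK3CD dark zone cells. It measured 22.9, 25.5, 22.7 and 29.0 CPM in aPIK3CD dark zone cells and 42.1, 60.6, 38.0 and 45.3 CPM in aPIK3CD naive B cells, which did not overlap, a log2 difference of -0.88 (SE 0.27, edgeR adjusted p = 0.0192). That call was lost without naive aPIK3CD replicate 2, without dark zone aPIK3CD replicate 3, and also when the libraries titled aPIK3CD replicate 1 were moved to WT (highest edgeR adjusted p 0.0674). In WT the same difference was -0.26 (SE 0.37, edgeR adjusted p = 0.594). Per exonic length the ratio of Akt2 to Akt1 averaged 0.239 in aPIK3CD and 0.275 in WT naive B cells, 0.0826 ± 0.00872 in aPIK3CD (SD, n = 4) and 0.105 ± 0.0126 in WT dark zone cells (n = 3), 0.198 in aPIK3CD and 0.207 in WT light zone cells, and 0.387 in aPIK3CD and 0.315 in WT plasma cells. All 7 deep dark zone libraries lay between 0.0714 and 0.114, below the lowest ratio outside the dark zone, 0.140.

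GSK3B is a kinase that marks many growth-promoting proteins for degradation and that AKT inhibits. Gsk3b (ENSMUSG00000022812, chromosome 16) measured 89.1, 114, 83.1 and 88.8 CPM in aPIK3CD dark zone cells and 138, 137 and 93.3 CPM in the deep WT dark zone libraries, with 1 count in the shallow one. Naive B cells held 69.7, 91.9, 37.2 and 49.4 CPM in aPIK3CD and 42.3, 50.1, 49.1 and 46.9 CPM in WT. The WT naive libraries lay close together and below the 3 deep WT dark zone libraries, while those of aPIK3CD overlapped with their dark zone counterparts. In the dark zone over naive B cells Gsk3b rose by 1.36 on the log2 scale in WT (SE 0.24, edgeR adjusted p = 0.000287), and the same difference in aPIK3CD was 0.61 (SE 0.27, edgeR adjusted p = 0.0823).

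Light zone libraries held 97.9, 96.8, 71.5 and 73.8 CPM of Gsk3b in aPIK3CD and 92.3, 87.3, 75.1 and 84.8 CPM in WT, so the genotypes overlapped fully there. Plasma cells held 45.4, 36.5, 43.3 and 36.0 CPM in aPIK3CD and 72.9, 68.0, 66.9 and 78.7 CPM in WT, with no overlap between genotypes and a log2 difference of -0.85 (SE 0.22, 95% interval -1.34 to -0.37, edgeR adjusted p = 0.0572). In plasma cells 14.7% of all genes tested did not overlap between the genotypes. The difference stayed between -0.91 and -0.78 under all alternatives. It passed in 1 of them, when immunoglobulin and T cell receptor genes were removed (edgeR adjusted p = 0.0413). In the others the edgeR adjusted p reached 0.246. The plasma cell values of Gsk3b rest on 19 to 29 counts per library in aPIK3CD and 26 to 39 in WT. Within aPIK3CD, Gsk3b fell in plasma cells relative to light zone cells by 1.06 on the log2 scale (SE 0.21, edgeR adjusted p = 0.000533), and in WT that difference was -0.20 (SE 0.19, edgeR adjusted p = 0.366). Against naive B cells Gsk3b was 0.65 higher in WT plasma cells (SE 0.22, edgeR adjusted p = 0.0253), a call lost in 7 of 15 alternatives including the removal of any plasma cell WT library, and -0.60 in aPIK3CD plasma cells (SE 0.30, edgeR adjusted p = 0.107). The test of whether the genotype difference varies among the 4 populations gave Gsk3b the lowest p of the members, 0.00608 before and 0.407 after adjustment (edgeR), and called 0 of 9 members and 0.0256% of all genes.

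TSC1 and TSC2 form the complex that keeps RHEB inactive, TSC2 being its GTPase-activating subunit and TSC1 its stabilizer. Tsc1 (ENSMUSG00000026812, chromosome 2) measured 36.0, 21.1, 9.41 and 36.0 CPM in aPIK3CD plasma cells and 44.9, 52.6, 86.5 and 66.2 CPM in aPIK3CD light zone cells. Every plasma cell library lay below every light zone library, and Tsc1 fell by 1.26 on the log2 scale (SE 0.35, edgeR adjusted p = 0.00586). In WT, plasma cells held 79.7, 28.8, 22.3 and 57.9 CPM and light zone cells 59.7, 63.1, 60.9 and 67.0 CPM, a difference of -0.38 (SE 0.32, edgeR adjusted p = 0.332). The WT plasma cell libraries spread on both sides of the light zone values. The plasma cell values of Tsc1 rest on 5 to 23 counts per library in aPIK3CD and 11 to 35 in WT. Set directly against WT, aPIK3CD plasma cells differed by -0.88 in Tsc1 (SE 0.46, 95% interval -1.88 to 0.13, edgeR adjusted p = 0.275) and the genotypes overlapped.

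Tsc2 (ENSMUSG00000002496, chromosome 17) passed in none of the 12 pairwise comparisons, and its group means lay between 41.6 and 62.0 CPM, the narrowest span of the 9 genes as a ratio of highest to lowest mean (1.49). Its largest log2 difference by size was -0.41 between light and dark zone in aPIK3CD (SE 0.23, edgeR adjusted p = 0.35). Tsc2 shares 693 exonic bases with the protein-coding gene Pkd1 on the opposite strand, which held 593 counts in all against 2501 for Tsc2, and the sources used here do not state a strand setting. The Tsc1 to Tsc2 ratio per exonic length was 0.402 ± 0.195 in aPIK3CD and 0.789 ± 0.498 in WT plasma cells (SD, n = 4 each), and 1.23 ± 0.378 in aPIK3CD and 1.07 ± 0.190 in WT light zone cells. The plasma cell ratios rest on the few Tsc1 counts given above and on 19 to 35 counts of Tsc2 per library in aPIK3CD and 18 to 28 in WT.

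RHEB is the GTPase that activates mTORC1 on the lysosome. Rheb (ENSMUSG00000028945, chromosome 5), whose start region with its E-box is shown above, measured 163, 128, 156 and 109 CPM in aPIK3CD and 177, 117, 167 and 164 CPM in WT naive B cells. Dark zone cells held 220.0, 184, 204 and 167 CPM in aPIK3CD and 159, 165 and 210.2 CPM in the deep WT libraries. Light zone cells held 221, 212, 208 and 164 CPM in aPIK3CD and 214, 166, 169.5 and 139 CPM in WT. In WT these 3 populations overlapped with one another, while in aPIK3CD all naive libraries lay below the dark and light zone libraries, the nearest only just. Plasma cells held 428, 370.3, 407 and 346 CPM in aPIK3CD and 371, 314, 372 and 419 CPM in WT, and the lowest of them stood above the highest of all other libraries.

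Rheb rose in plasma cells over naive B cells by 1.50 on the log2 scale in aPIK3CD (SE 0.14, edgeR adjusted p = 3.45e-06) and by 1.29 in WT (SE 0.17, edgeR adjusted p = 1.56e-05). Over light zone cells it rose by 0.96 in aPIK3CD (SE 0.13, edgeR adjusted p = 2.03e-05) and by 1.14 in WT (SE 0.16, edgeR adjusted p = 3.37e-05). These 4 calls held in every alternative run. The dark zone exceeded naive B cells by 0.50 in aPIK3CD (SE 0.16, edgeR adjusted p = 0.0222), a call lost in 5 of 15 alternatives, and the WT difference was 0.16 (SE 0.24, edgeR adjusted p = 0.624), which turned to -0.0026 with DESeq2's size factors. Between genotypes Rheb differed by 0.04 in plasma cells with a 95% interval of -0.26 to 0.34.

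MTOR is the kinase common to both complexes. Mtor (ENSMUSG00000028991, chromosome 4) measured 67.3, 69.1, 35.8 and 48.0 CPM in aPIK3CD plasma cells and 68.3, 81.1, 70.3 and 57.9 CPM in WT plasma cells. Naive B cells held 37.0, 26.2, 20.7 and 51.5 CPM in aPIK3CD and 40.4, 32.9, 29.0 and 29.5 CPM in WT. In WT all plasma cell libraries stood above all naive libraries and Mtor rose by 1.12 on the log2 scale (SE 0.25, edgeR adjusted p = 0.00208), while in aPIK3CD the groups overlapped and the difference was 0.71 (SE 0.33, edgeR adjusted p = 0.0886). In germinal centre cells group means lay between 41.4 and 59.7 CPM.

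RPTOR is the scaffold that presents substrates to mTORC1. Rptor (ENSMUSG00000025583, chromosome 11) measured 20.4, 42.0, 35.7 and 63.4 CPM in aPIK3CD dark zone cells, 31.3, 30.7, 18.8 and 34.3 CPM in aPIK3CD plasma cells, and 20.0, 10.9, 7.67 and 10.4 CPM in aPIK3CD naive B cells. The dark zone libraries lay above the naive ones, though the lowest of them only just, and plasma cells overlapped with naive B cells. Rptor rose over naive B cells by 1.73 on the log2 scale in the dark zone (SE 0.43, edgeR adjusted p = 0.00574) and by 1.25 in plasma cells (SE 0.41, edgeR adjusted p = 0.0237), the plasma cell call being lost in 4 of 15 alternatives. In WT naive B cells the values were 7.78, 31.9, 13.6 and 27.9 CPM, and the differences were 0.94 in the dark zone (SE 0.46, edgeR adjusted p = 0.115) and 0.30 in plasma cells (SE 0.48, edgeR adjusted p = 0.635). The plasma cell values of Rptor rest on 10 to 20 counts per library in aPIK3CD and 8 to 15 in WT. Rptor shares 84 exonic bases with the antisense gene Rptoros, which held 12 counts in all libraries.

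RICTOR is the subunit that defines mTORC2. Rictor (ENSMUSG00000050310, chromosome 15) measured 179.7, 188, 113 and 191 CPM in aPIK3CD naive B cells and 158, 237, 207 and 176 CPM in WT naive B cells. Dark zone cells held 133, 116, 131 and 136 CPM in aPIK3CD and 129, 163 and 108 CPM in the deep WT libraries. Light zone cells held 107, 88.4, 100.3 and 88.4 CPM in aPIK3CD and 88.6, 103, 90.8 and 63.9 CPM in WT. Plasma cells held 72.0, 69.1, 71.5 and 95.9 CPM in aPIK3CD and 79.7, 105, 72.0 and 104 CPM in WT. Group means thus ran from naive B cells at the top through the dark zone to light zone and plasma cells, with light zone and plasma cells overlapping.

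Rictor fell in plasma cells relative to naive B cells by 1.11 on the log2 scale in aPIK3CD (SE 0.20, edgeR adjusted p = 0.0007) and by 1.07 in WT (SE 0.21, edgeR adjusted p = 0.000579), with no overlap in either genotype. Both calls held in every alternative run. In the dark zone relative to naive B cells it fell by 0.52 in WT (SE 0.20, edgeR adjusted p = 0.0424), a call lost in 5 of 15 alternatives, and the aPIK3CD difference was -0.37 (SE 0.18, edgeR adjusted p = 0.108). Per exonic length Rictor exceeded Rptor 11.8 ± 3.33 times in aPIK3CD and 9.79 ± 5.28 times in WT naive B cells (SD, n = 4 each). Elsewhere the mean ratio was between 2.22 and 3.10. Single libraries overlapped, since the lowest naive ratio, 5.02 in WT, lay below the highest elsewhere, 5.35 in aPIK3CD light zone cells.

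**Figure D2:**
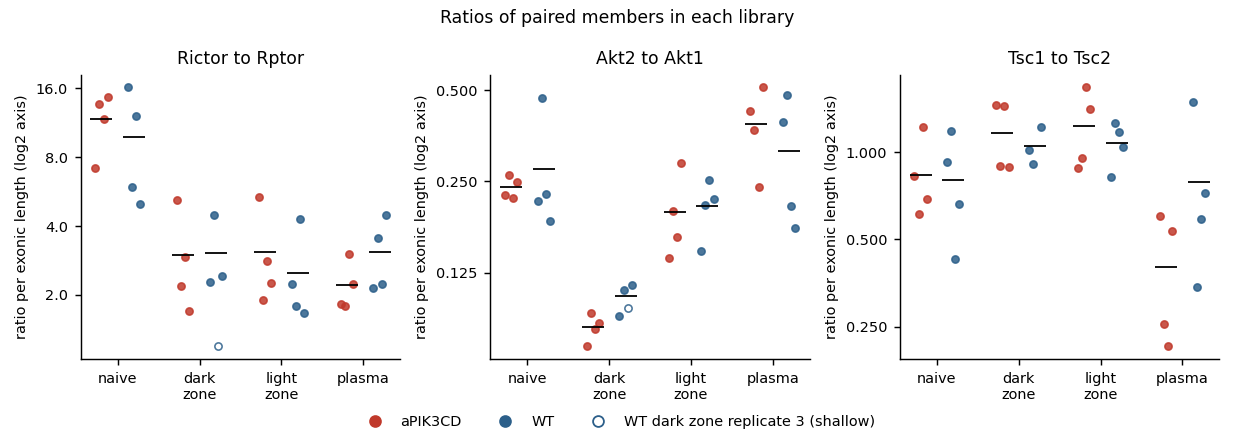
Ratio of counts per exonic length of Rictor to Rptor, Akt2 to Akt1 and Tsc1 to Tsc2 in each library (log2 axes), by population, with aPIK3CD left of WT. Points are libraries and lines the group means without the shallow WT dark zone replicate 3 (open circle, absent for Tsc1 to Tsc2 because it has no Tsc2 count). Rictor to Rptor averages 11.8 and 9.79 in naive B cells and Akt2 to Akt1 averages 0.0826 and 0.105 in the dark zone, aPIK3CD before WT.

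Counted over the 9 genes, dark zone against naive B cells gave 3 higher and 1 lower in aPIK3CD, where 22.2% of all genes were higher and 21.4% lower, and 2 higher and 1 lower in WT, where 19.8% were higher and 21.6% lower. Plasma cells against naive B cells gave 2 higher and 1 lower in aPIK3CD (26.5% of all genes higher, 26.2% lower) and 3 higher and 1 lower in WT (25.4% higher, 24.2% lower). Plasma cells against light zone cells gave 1 higher and 2 lower in aPIK3CD (29.5% higher, 31.6% lower) and 1 higher and 1 lower in WT (28.1% higher, 28.3% lower). These counts, from 2 to 4 of 9, were near or below the shares of all genes.

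The groups did not overlap for 4 members between dark zone and naive B cells in aPIK3CD (43% of all genes) and for 1 in WT (36.7%), or for 2 without the shallow library (48.3%). Between light and dark zone the number was 3 in aPIK3CD (12.7%) and 1 in WT (9.1%), or 4 without the shallow library (15.5%), and Rictor, lower in the light zone, was among them in aPIK3CD and, without the shallow library, in WT. It was 2 in aPIK3CD (49.1%) and 4 in WT (47.2%) between plasma cells and naive B cells, and 3 in aPIK3CD (55.7%) and 2 in WT (51.6%) between plasma cells and light zone cells. The median log2 difference of the members in plasma cells against naive B cells was -0.25 in aPIK3CD and -0.12 in WT, beside -0.08 and -0.09 over all genes. Comparisons within a genotype share libraries, so these counts are not independent of one another.

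**Figure D3:**
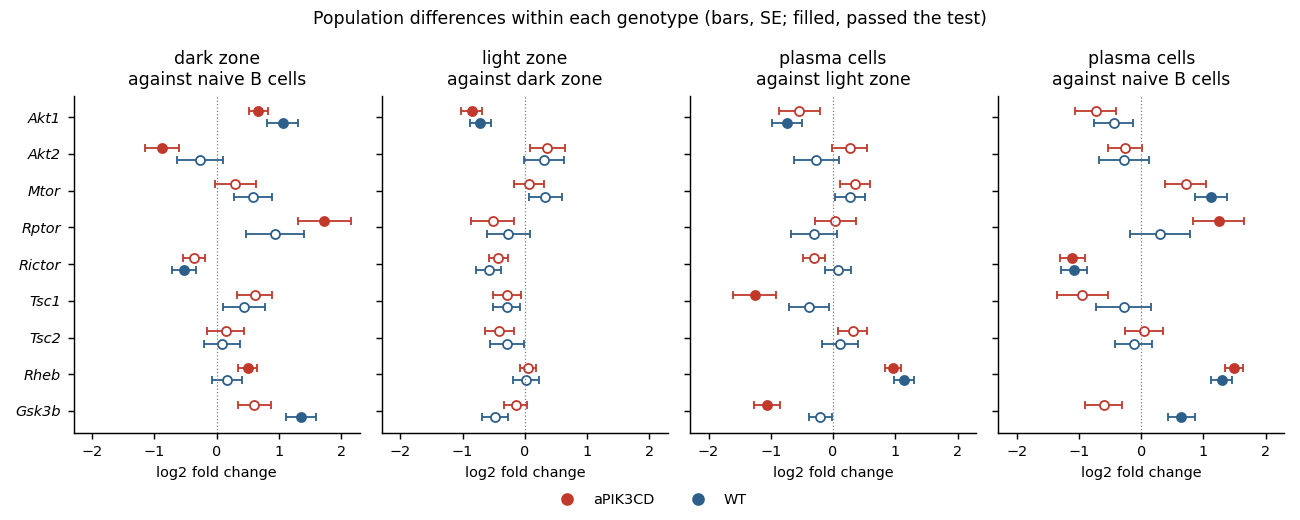
Log2 fold change of the 9 genes (x axis) for 4 pairs of populations within aPIK3CD (red, upper row of each gene) and WT (blue). Bars are the SE, and filled points passed the test at an edgeR adjusted p below 0.05. Rheb in plasma cells (1.50 and 1.29 over naive B cells, aPIK3CD before WT) and Akt1 in the dark zone (0.67 and 1.06) passed in both genotypes, as did Rictor in plasma cells (-1.11 and -1.07).

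Between aPIK3CD and WT, DESeq2 also called 0 of the 9 members in each of the 4 populations. No share of all genes is given here for an unadjusted edgeR p below 0.05. At that threshold the counts were 1 in naive B cells, 0 in the dark and light zones and 1, Gsk3b, in plasma cells. In naive B cells it was Akt1, at 107, 133, 99.0 and 104 CPM in aPIK3CD and 50.6, 57.1, 92.5 and 107 CPM in WT, a log2 difference of 0.53 (SE 0.24, 95% interval 0.01 to 1.04, edgeR adjusted p = 1.0), and the groups overlapped. The next smallest p there was that of Rptor, with -0.75 (SE 0.52, edgeR adjusted p = 1.0). In the light zone Mtor differed by -0.47 (SE 0.23, edgeR adjusted p = 0.764) and Rheb by 0.21 (SE 0.15, edgeR adjusted p = 0.78). In the dark zone Gsk3b differed by -0.34 (SE 0.21, edgeR adjusted p = 0.748) and Akt1 by 0.18 (SE 0.16, edgeR adjusted p = 0.842).

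The intervals set what size of genotype difference these libraries leave room for. They were narrowest for Rheb in plasma cells, and for Tsc1 in plasma cells and Rptor in naive B cells they ran from -1.88 to 0.13 and from -1.87 to 0.37. In plasma cells library totals were 652722 to 788999 in aPIK3CD and 473149 to 704361 in WT. Summed over 7 monocyte, macrophage and neutrophil markers, 5 with counts and S100a8 and S100a9 at 0 in both groups, plasma cell libraries held 226 to 660.0 CPM in aPIK3CD and 31.4 to 429 CPM in WT. The part of these in the values of Gsk3b and Tsc1 was not tested.

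**Figure D4:**
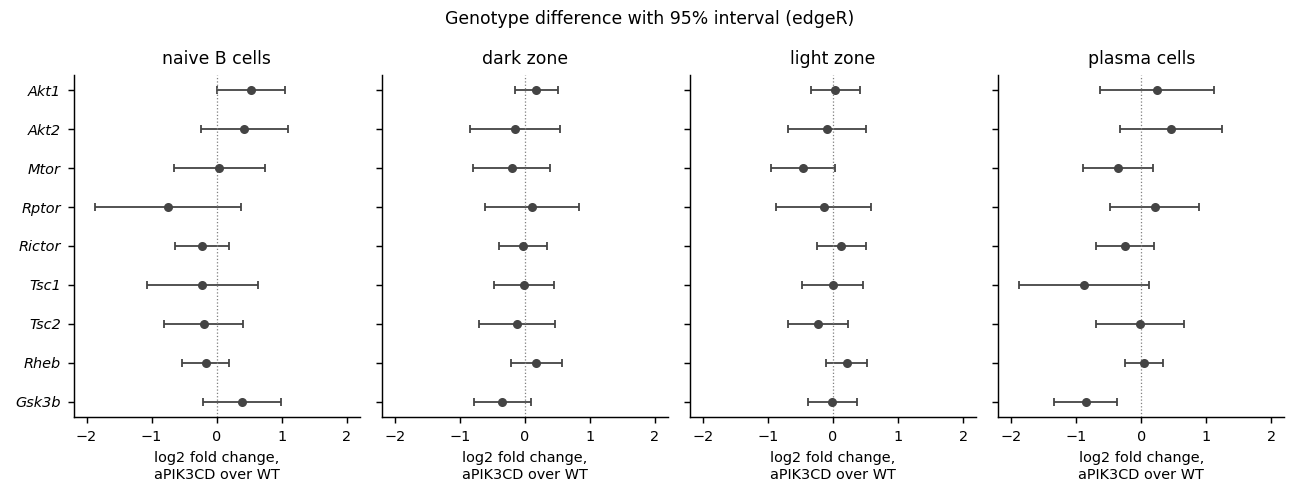
Log2 fold change of aPIK3CD over WT (x axis) for the 9 genes in each population, with the 95% interval from edgeR. No member passed in any population; the interval of Gsk3b in plasma cells (-1.34 to -0.37) does not reach 0, nor, narrowly, does that of Akt1 in naive B cells (0.01 to 1.04).

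Around the 9 genes, 6 lists of pathway genes were counted, 95 genes of which 93 are in the table. In plasma cells of aPIK3CD against WT, 2 rose and 1 fell of 64 tested, or 4.69%, near the 3.2% of all genes. The calls of these 3 genes were lost in 9 or 10 of 15 alternatives each, which include leaving out any 1 of the 4 aPIK3CD libraries. Fnip1, a partner of folliculin in amino acid signalling to mTORC1, measured 42.7 ± 6.56 CPM in aPIK3CD and 90.1 ± 21.3 CPM in WT (SD, n = 4 each; log2 difference -1.09, SE 0.25, edgeR adjusted p = 0.0372). Pdcd4, an inhibitor of translation initiation that S6 kinase marks for degradation, measured 243 ± 35.5 and 151 ± 19.2 CPM (0.65, SE 0.16, edgeR adjusted p = 0.0433), aPIK3CD before WT. Chac1, a glutathione-degrading enzyme induced through ATF4, measured 129 ± 26.6 and 64.8 ± 15.6 CPM (0.98, SE 0.22, edgeR adjusted p = 0.0378). None of the list genes passed elsewhere, 0 of 83 in naive B cells, 0 of 79 in the dark zone and 0 of 80 in the light zone (edgeR). At an unadjusted edgeR p below 0.05 the counts there were 3, 11 and 6, and 20 of 64 in plasma cells. These counts have no share of all genes at that threshold beside them and are not read as a result.

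Among kinases related to AKT, Sgk1, of the SGK family that mTORC2 activates, fell in the dark zone relative to naive B cells by 2.17 on the log2 scale in aPIK3CD (SE 0.31) and by 3.33 in WT (SE 0.52). Of the 7 genes on the list that holds it, 0 rose and 4 fell in aPIK3CD and 0 rose and 3 fell in WT, beside 21.4% and 21.6% of all genes that fell. Prr5, a subunit of mTORC2, rose in plasma cells over naive B cells by 1.26 in aPIK3CD (320.0 ± 61.5 and 135 ± 23.5 CPM, edgeR adjusted p = 6.28e-05) and by 0.62 in WT (214 ± 34.9 and 143 ± 32.8 CPM, edgeR adjusted p = 0.0173, lost in 4 of 15 alternatives), the comparison in which Rictor fell. The shared subunit gene Mlst8 fell in WT plasma cells relative to light zone cells (-1.10, SE 0.44, edgeR adjusted p = 0.046), a call lost in 11 of 15 alternatives.

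Among regulators of TSC and RHEB, Stk11, which encodes the kinase LKB1 upstream of AMPK, rose in the dark zone over naive B cells by 1.79 in aPIK3CD (SE 0.25, edgeR adjusted p = 0.000121) and by 1.46 in WT (SE 0.24, edgeR adjusted p = 0.000126). Rhebl1, a relative of Rheb, fell there by 1.16 in aPIK3CD, where Rheb rose, and by 1.07 in WT (lost in 2 of 15 alternatives). Of this list 1 gene, Stk11, rose and 2 fell of 8 tested in aPIK3CD. In WT 1, again Stk11, rose and 5 fell of 7. Of all genes 22.2% rose and 21.4% fell in aPIK3CD, and 19.8% rose and 21.6% fell in WT. The AMPK subunit genes Prkab2 in aPIK3CD and Prkab1 and Prkaa1 in WT were among those that fell. The calls of Prkab2 and Prkaa1 were lost in 5 and 6 of 15 alternatives. Tbc1d7, the third subunit of the TSC complex, rose in aPIK3CD plasma cells over naive B cells by 1.38 (62.8 ± 14.1 and 24.4 ± 6.22 CPM, edgeR adjusted p = 0.00146). The AMPK subunit gene Prkab1 fell in plasma cells by 1.20 in aPIK3CD and by 1.41 in WT. In plasma cells against naive B cells, 1 gene of this list rose and 3 fell of 7 tested in aPIK3CD. In WT 0 rose and 3 fell of 7. Of all genes 52.8% passed there in aPIK3CD and 49.6% in WT.

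In the amino acid sensing arm, 5 genes rose and 6 fell of 25 tested in plasma cells against naive B cells of aPIK3CD, and 6 rose and 7 fell of 25 in WT, beside 52.8% of all genes that passed in aPIK3CD and 49.6% in WT, so the counts were below or near those shares. Lamtor2, a subunit of the Ragulator complex that anchors mTORC1 to the lysosome, measured 281 ± 41.7 CPM in plasma cells and 115 ± 8.90 CPM in naive B cells of aPIK3CD (1.30, SE 0.13, edgeR adjusted p = 5.98e-06), and 339.6 ± 52.2 and 116 ± 31.4 CPM in WT (1.60, SE 0.20, edgeR adjusted p = 1.1e-05). Sesn3, a sestrin that restrains mTORC1, fell by 3.20 in aPIK3CD (SE 0.25) and by 3.34 in WT (SE 0.36). Sec13 rose by 1.55 in aPIK3CD and by 1.15 in WT, and its product also forms the COPII coat of vesicles leaving the endoplasmic reticulum. Sesn1, another sestrin, fell in the dark zone relative to naive B cells by 2.05 in aPIK3CD and by 2.21 in WT.

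Of the mTORC1 substrates and translation outputs, 2 rose and 6 fell of 17 tested in the dark zone against naive B cells of aPIK3CD. In WT 3 rose and 5 fell of 17. Of all genes 43.6% passed there in aPIK3CD and 41.4% in WT. Rps6kb1, the gene of S6 kinase 1, rose in the dark zone over naive B cells by 1.12 in aPIK3CD (SE 0.11, edgeR adjusted p = 5.75e-06) and by 1.19 in WT (SE 0.16, edgeR adjusted p = 1.76e-05). Pdcd4 fell there by 3.47 in aPIK3CD (SE 0.20) and by 3.65 in WT (SE 0.30). Eif4ebp1, whose product blocks cap-dependent translation until mTORC1 phosphorylates it, measured 320.1 ± 62.6 CPM in plasma cells and 78.5 ± 3.74 CPM in naive B cells of aPIK3CD, and 346 ± 38.5 and 90.8 ± 28.3 CPM in WT, log2 differences of 2.04 (SE 0.15, edgeR adjusted p = 2.78e-07) and 1.98 (SE 0.21, edgeR adjusted p = 2.5e-06). Tfeb, a transcription factor of lysosomal genes that mTORC1 keeps out of the nucleus, fell in plasma cells by 1.87 in aPIK3CD and by 2.52 in WT. In plasma cells against naive B cells, 5 genes of the list rose and 2 fell of 16 in aPIK3CD. In WT 3 rose and 3 fell of 16. Of all genes 52.8% passed there in aPIK3CD and 49.6% in WT.

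Of genes whose transcription mTORC1 is known to raise, 13 rose and 3 fell of 19 tested in plasma cells against naive B cells of aPIK3CD, and 12 rose and 3 fell of 20 in WT, where 26.5% of all genes rose and 26.2% fell in aPIK3CD and 25.4% rose and 24.2% fell in WT. Their median log2 difference was 1.54 in aPIK3CD and 1.39 in WT, beside -0.08 and -0.09 over all genes. Against light zone cells, 9 rose and 5 fell of 20 in aPIK3CD and 7 rose and 6 fell of 20 in WT, with medians of 0.44 and 0.19. Of all genes 29.5% rose and 31.6% fell there in aPIK3CD, and 28.1% rose and 28.3% fell in WT. Among those of the list that fell, Sqle fell by 2.43 in aPIK3CD (edgeR adjusted p = 4.98e-07) and Hmgcs1 by 2.52 in WT (edgeR adjusted p = 3.51e-06). Slc3a2, the heavy chain of amino acid transporters, measured 2871 ± 243 CPM in plasma cells and 214 ± 34.0 CPM in naive B cells of aPIK3CD, and 2361 ± 129 and 234 ± 43.0 CPM in WT. Phgdh, the first enzyme of serine synthesis, measured 276 ± 45.1 and 61.1 ± 3.42 CPM in aPIK3CD and 213 ± 21.4 and 51.5 ± 6.58 CPM in WT, plasma cells before naive B cells. The rise was not particular to plasma cells. In the dark zone against naive B cells, 8 rose and 2 fell of 19 in aPIK3CD and 9 rose and 2 fell of 18 in WT. Medians there were 0.58 and 0.61. Of all genes, 22.2% rose and 21.4% fell there in aPIK3CD, and 19.8% rose and 21.6% fell in WT. Several genes of this list are also known targets of ATF4 or MYC.

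Across the 31 libraries with totals over 100000, the levels of Rheb most resembled those of Sdf2l1 (Pearson r = 0.951), Pon3 (0.951) and Mdh1 (0.951) among 10319 genes compared on the log2 CPM scale. For Rptor the closest were Tmem259 (0.766), Snf8 (0.739) and AI314180 (0.736), and for Akt1 they were Laptm5 (0.816), Snx20 (0.807) and Gna12 (0.806). The range of group means of Rheb rests on the shallow library, at 2.89 on the log2 scale with it and 1.49 without it. Without it Tsc1 (1.73) ranks among the widest 3 in place of Rheb, and its closest genes, listed after the data were seen, were Fam133b (0.833), Was (0.808) and Gna13 (0.807). Sdf2l1 encodes a chaperone cofactor of the endoplasmic reticulum and Mdh1 the cytosolic malate dehydrogenase. Among the members themselves, r was 0.60 between Gsk3b and Akt1, 0.54 between Tsc1 and Gsk3b, 0.51 between Mtor and Rheb, -0.66 between Rictor and Rheb and -0.62 between Rictor and Mtor. These are descriptions over libraries that fall into 4 populations and share their depth and scaling.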

How the data were processed

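Counts were deposited by the authors as 1 table of raw counts, whole numbers per gene for 53465 Ensembl genes in 32 columns, all used. STAR 2.4.2a, HTSeq and Picard are named in the submitters' processing notes without roles, and the build and strand setting are not given in the sources used here. Libraries were grouped by title. Genes without a name (0.173% of counts) belong to no list. The 9 members and the lists were chosen with earlier results of these data known.

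Each pair of groups was fitted alone over all genes with edgeR 4.0.16 in R 4.3.3 (TMM, filterByExpr with a minimum count of 10 and a minimum total of 15, two-sided quasi-likelihood F test). Genes passed at a Benjamini-Hochberg adjusted p below 0.05 over all genes tested. SE was obtained as the size of the log2 difference over the root of its F, and 95% intervals use the t quantile of the fit. The genotype by population interaction was tested in a fit of all 8 groups. Levels are CPM on TMM-scaled library sizes of all 32 libraries, and levels per kilobase use exon lengths of GENCODE M21, as do chromosomes. Values come from read counts without molecular identifiers, so the limit of 3 counts covers counting error only.

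All 9 members are named. Named with values are also the 2 members of smallest p in each genotype comparison, and from each pathway list up to 4 genes of smallest p in a comparison, apart from genes not reported here. For the 3 members with the widest range of group means of log2 CPM over all 32 libraries, the 3 genes of highest Pearson r of log2 CPM (prior count 2) are named. Alternatives were DESeq2 1.42.0 size factors and its Wald test, a fit without the low-count filter, one without antigen receptor genes (immunoglobulin and T cell receptor), one blocked on replicate number, one over all 8 groups, aPIK3CD replicate 1 counted as WT, and leaving out each replicate. The fits were tested on simulated data.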

Additional observations from a re-analysis of the deposited data

Results flagged for a closer look

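In 3 of 72 groups of 4 libraries, over 9 genes and 8 groups, a single library lay apart from the other three by more than Dixon's 95% critical value, a share that chance gives to about 1 in 20 groups. Akt1 measured 83.4 CPM (36 counts) in plasma cell WT replicate 4 and 42.9 to 49.7 CPM in the other three libraries. Rictor measured 113 CPM in naive aPIK3CD replicate 3, against 179.7 to 191 CPM in the rest of its group. In plasma cells of aPIK3CD, replicate 4 held 95.9 CPM of Rictor (56 counts), and the others held 69.1 to 72.0 CPM. Without any 1 of these libraries no call of Akt1 or Rictor given in the report was lost.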

How the results depend on the processing

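None of the 21 member calls changed direction under an alternative. Of the 108 member differences, 26 that had not passed had the other sign in at least 1 alternative, all with a size of at most 0.28 on the log2 scale. Among those given in the report, Rheb in the WT dark zone against naive B cells (0.16) was -0.0026 with DESeq2's size factors and -0.048 with its Wald test, and -0.013 to 0.21 with 1 library left out. Rheb between genotypes in plasma cells (0.04) was -0.036 with aPIK3CD replicate 1 counted as WT and -0.021 to 0.12 with 1 library left out. Of 21 member calls between populations, 13 held in every alternative and 8 were lost in at least 1. Lost most often were Akt1 between the zones in WT (8 of 15 alternatives), Gsk3b in WT plasma cells over naive B cells (7), and Rheb in aPIK3CD and Rictor in WT dark zone cells against naive B cells (5 each). The causes were not tested.

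The number of members called between genotypes stayed at 0 except in plasma cells, where it was 1 (Gsk3b) once antigen receptor genes were removed. With aPIK3CD replicate 1 counted as WT, the dark zone against naive B cells in aPIK3CD gave 2 members called in place of 4. A single fit over 8 groups gave 7 in place of 3 in plasma cells against naive B cells of aPIK3CD, and 0 in place of 1 between the zones in aPIK3CD and in WT. DESeq2's Wald test also gave 0 between the zones in WT. Leaving out 1 library at a time gave 2 to 5 members in aPIK3CD and 2 to 4 in WT for the dark zone against naive B cells, 1 to 1 in aPIK3CD and 0 to 1 in WT between the zones, 2 to 5 in aPIK3CD and 3 to 4 in WT for plasma cells against naive B cells, and 3 to 4 in aPIK3CD and 1 to 2 in WT for plasma cells against light zone cells. Over all genes, the number called between genotypes in plasma cells was 249, and it was 2 with aPIK3CD replicate 1 counted as WT, 77 with the replicate block, 694 without a filter on low counts and 15 to 243 with 1 library left out. DESeq2's size factors moved the median of all genes in the dark zone against naive B cells of WT to -0.23, against -0.06 with TMM, and the calls of Akt1 and Gsk3b there held.

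The labels number the replicates without saying that a number marks 1 animal, and the column names place the 4 populations of a number in 1 plate row. The correlation of same-numbered libraries was not over 0.1 for every pair in any comparison. In aPIK3CD each pair matched its own number best for light against dark zone (0.050 to 0.19) and for dark zone against naive B cells (0.037 to 0.12), a hint from the data rather than the design. With the replicate number as a block, 6 members were called in the dark zone against naive B cells of aPIK3CD and 2 in that of WT, 0 between the zones in WT, and the other counts were as without the block. The block ended the calls of Rictor in the dark zone against naive B cells (-0.50, adjusted p = 0.0808) and of Akt1 between the zones (-0.74, adjusted p = 0.0805), both in WT.

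Plasma cell libraries were the least deep apart from dark zone WT replicate 3, where a count of 0 allows up to 103 CPM. Without that library the calls of Akt1, Gsk3b and Rictor in the WT dark zone stayed past the threshold.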
